A study of Homo sapiens with 6 samples.

Results

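LINC01409, LINC01128, LINC00115, LINC01134, MRPL20-AS1 and MRPL20-DT are 6 long noncoding RNA (lncRNA) genes near the start of chromosome 1. They were chosen by name from a list drawn up with earlier results of these counts in view, in which several of them were lower in adriamycin-treated cells, and they are 6 of the 220 genes listed in all 6 libraries. The comparisons with adriamycin are therefore given for these genes as a description without a test. The comparison of etoposide with control was tested. Its etoposide and control libraries also entered the earlier adriamycin comparisons, so for the 6 genes this test is not independent of the choice. The coding genes beside them, which were taken by position alone, were tested. Poly-A RNA of U2OS, a line derived from a human osteosarcoma, was sequenced in 3 groups of 2 libraries: untreated control cells, cells exposed to adriamycin at 1.5 µg/ml for 4 h, and cells exposed to etoposide at 100 µM for 4 h. Both drugs poison topoisomerase II, which cuts and rejoins both strands of DNA, and adriamycin (doxorubicin) also inserts itself between the base pairs. The study asked whether adriamycin changes chromatin and transcription in ways that etoposide does not.

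A lncRNA gene is transcribed, spliced and polyadenylated much as a coding gene is, but its RNA has no long reading frame. Many lncRNAs start next to a coding gene and run away from it on the other strand (divergent transcripts, the "DT" of a gene name), and others run over a coding gene on the opposite strand (antisense RNAs, the "AS" of a name). Such RNAs are often short-lived and retained in the nucleus, and some act on their neighbours, while for many no role is known. No function is stated here for the 6 RNAs themselves.

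In the GRCh38 annotation (GENCODE 44), the genes fell into 3 places on chromosome 1. LINC01409 (ENSG00000237491, bases 778747 to 810065), LINC01128 (ENSG00000228794, bases 825138 to 859446) and LINC00115 (ENSG00000225880, bases 824228 to 827539) lay together before SAMD11, which encodes a SAM-domain protein and was the nearest coding gene with counts. LINC00115 was on the minus strand and shared 507 exonic bases, 15.3% of its exon length, with LINC01128 on the plus strand. MRPL20-AS1 (ENSG00000224870, bases 1399515 to 1402046) and MRPL20-DT (ENSG00000272455, bases 1409096 to 1410618) flanked MRPL20, a gene for a protein of the large subunit of the mitochondrial ribosome. MRPL20-AS1 overlapped the 3′ end of MRPL20 over 138 exonic bases, and it started 180 bases from the start of CCNL2, which encodes a cyclin linked to pre-mRNA splicing and runs the other way. LINC01134 (ENSG00000236423, bases 3900347 to 3917225) started 54 bases from C1orf174, a coding gene of the opposite strand that is little characterised. The exon lengths ran from 1523 bases (MRPL20-DT) to 17958 bases (LINC01128). No strand setting was given for the counting and the kit named in the labels does not mark strand, so reads from LINC00115 and LINC01128, or from MRPL20-AS1 and MRPL20, cannot be told apart where the genes overlap.

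**Figure D1:**
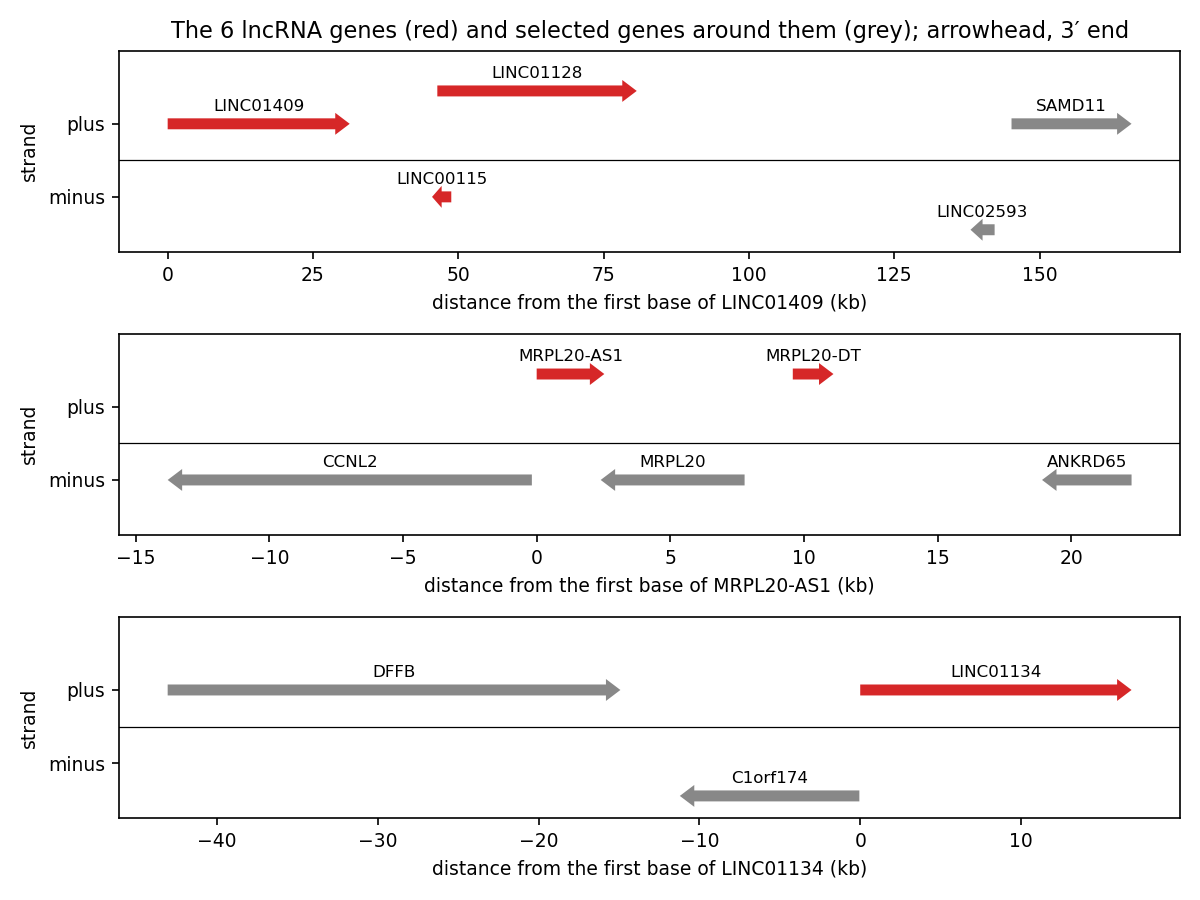
Position of the 6 lncRNA genes (red) and selected genes around them (grey, among them the lncRNA gene LINC02593) in 3 stretches of chromosome 1, drawn to scale by strand. The x axis is the distance in kb from the first base of LINC01409, MRPL20-AS1 or LINC01134, and the arrowheads mark the 3′ ends; MRPL20-AS1 begins beside CCNL2 and LINC01134 beside C1orf174, each on the other strand.

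RefSeq start windows (GRCh38.p14, from 250 bases before to 50 bases after the start) were held for 3 of the 6 genes and are shown because they carry the shared starts and a repeated motif. The capitals mark the TGACGTCA sites in LINC01409. In the others they mark the stretch between the GENCODE starts of the lncRNA and of its coding partner. This stretch is 53 bases for LINC01134 and C1orf174, and 179 bases for MRPL20-AS1 and CCNL2. The RefSeq starts of the same pairs have 131 and 194 bases between them. LINC01134 and MRPL20-AS1 are printed from the first capital to the end of the RefSeq window. Each is plus strand, 5′ to 3′.
LINC01409, chr1:778548-778847: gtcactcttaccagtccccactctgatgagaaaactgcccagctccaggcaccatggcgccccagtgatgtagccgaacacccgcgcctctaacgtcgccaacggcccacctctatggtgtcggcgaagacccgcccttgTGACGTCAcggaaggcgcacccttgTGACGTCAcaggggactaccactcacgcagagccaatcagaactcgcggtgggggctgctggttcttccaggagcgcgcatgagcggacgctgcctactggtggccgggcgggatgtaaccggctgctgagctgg
LINC01134, chr1:3900294-3900453: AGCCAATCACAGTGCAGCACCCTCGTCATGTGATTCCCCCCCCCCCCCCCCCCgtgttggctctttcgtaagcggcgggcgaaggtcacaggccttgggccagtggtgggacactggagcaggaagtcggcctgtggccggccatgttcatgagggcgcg
MRPL20-AS1, chr1:1399336-1399579: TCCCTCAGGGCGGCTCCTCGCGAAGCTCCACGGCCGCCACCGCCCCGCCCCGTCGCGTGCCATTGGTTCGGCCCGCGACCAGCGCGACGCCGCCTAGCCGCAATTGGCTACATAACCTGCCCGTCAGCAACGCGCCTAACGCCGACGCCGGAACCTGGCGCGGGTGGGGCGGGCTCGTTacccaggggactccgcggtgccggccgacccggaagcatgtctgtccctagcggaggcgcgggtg
LINC01128, LINC00115 and MRPL20-DT had no window in the table.

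The windows were searched on both strands, after the sequences had been seen, for 5 motifs spelled here without overlap between them. The cAMP response element TGACGTCA, which reads the same on both strands, occurred 2 times in the LINC01409 window, and 1.85% of the 35116 windows of all genes held it at least once (0.0598% held it 2 or more times). CCAAT occurred 1 time in LINC01409, 1 time in LINC01134 and 2 times in MRPL20-AS1 (in 34.6% of all windows). CCGGAAG, an ETS core, occurred 1 time each in LINC01134 and MRPL20-AS1 (10.3%), GGGCGG 2 times in LINC01409 and 4 times in MRPL20-AS1 (45.0%), and TATAAA in none of the 3 (11.5%). The full windows held 24, 32 and 46 CG dinucleotides in LINC01409, LINC01134 and MRPL20-AS1, against a median of 14 over all windows, and their GC content was 63.7%, 70.7% and 73.3% against a median of 58.7%.

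The 220 shared genes lay between bases 12010 and 4594016 of chromosome 1 and held 59357 to 92794 counts per library; 94 of them passed the filter on low counts, all 6 lncRNA genes included. The etoposide libraries listed 67140 genes with 21450766 and 14244235 counts; for control and adriamycin, genes outside the shared list were not analysed here. In the etoposide libraries, COL1A1 (3463 and 3624 CPM, counts scaled to one library total) and SPARC of the bone and mesenchymal markers were high and COL1A2 nearly absent (5 and 2 counts). Of the epithelial markers, the cell type given in the labels, KRT8 (938 and 848 CPM) and KRT18 were high, while KRT19 had 1 and 0 counts and CDH1 30 and 20; the blood markers PTPRC and CD3E had 0 to 6 counts. Legends in the study call RNA replicates technical, but a supplementary legend uses that word for chromatin contact libraries from separate cultures. The kind of RNA replicate is therefore not settled here, and p-values measure only the spread between these libraries. Fewer cells and less RNA per cell cannot be told apart.

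The whole-library depth of the etoposide samples gave the level of each RNA per exon length, in CPM per kb of exon. MRPL20-AS1 was the most abundant of the 6, at 5.91 and 4.96 in etoposide replicates 1 and 2, which ranked it 138 and 196 among the 16739 lncRNA genes listed. Of these lncRNA genes, 7948 and 7547 had a count in replicates 1 and 2. MRPL20-DT followed at 3.61 and 2.12 and LINC01128 at 2.20 and 2.27, and these 2 genes overlapped in their replicates. LINC01409 (0.438 and 0.401) and LINC01134 (0.339 and 0.450) also overlapped each other, and LINC00115 was lowest at 0.282 and 0.276. The 4 coding neighbours that entered the tests were above all 6 on the same scale: SAMD11 stood at 7.48 and 7.39, C1orf174 at 8.36 and 7.86, CCNL2 at 20.8 and 22.8, and MRPL20 at 29.8 and 25.8. The levels of MRPL20-AS1 exceeded those of 69.3% and 66.0% of coding genes in the 2 libraries, and those of LINC00115 exceeded 34.3% and 33.6%. Coding genes without a count are included in these shares.

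MRPL20-AS1 had 251 and 160 raw counts in the control libraries, 321 and 179 with etoposide, and 58 and 37 with adriamycin. On the scale used for all further levels (counts divided by the TMM size factor of the library, called normalized counts), these were 203 and 184 in control, 217 and 188 with etoposide and 62.7 and 51.7 with adriamycin. Both adriamycin libraries lay below all 4 others, and control and etoposide overlapped. The log2 fold change of adriamycin against control was −1.75 (SE 0.22, n = 2 per group), or 3.36-fold lower, and against etoposide it was −1.82 (SE 0.22), or 3.53-fold lower.

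MRPL20-DT had 66 and 69 raw counts in control, 118 and 46 with etoposide, and 11 and 8 with adriamycin. Its normalized counts were 53.5 and 79.2 in control, 79.9 and 48.4 with etoposide, and 11.9 and 11.2 with adriamycin. The spread between the control libraries and between the etoposide libraries was wide, and the adriamycin libraries lay below both groups. The log2 fold change was −2.48 (SE 0.48) against control, a 5.59-fold lower level, and −2.49 (SE 0.48) against etoposide, a 5.62-fold lower level.

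LINC01409 had 34 and 23 raw counts in control, 79 and 48 with etoposide, and 8 and 3 with adriamycin. The exact Poisson 95% intervals of the adriamycin counts, which cover counting error only, were 3.45 to 15.8 and 0.619 to 8.77. Normalized counts were 27.5 and 26.4 in control, 53.5 and 50.5 with etoposide, and 8.65 and 4.19 with adriamycin, so that the 3 groups did not overlap and adriamycin was lowest. Adriamycin differed from control by −2.0 (SE 0.63) on the log2 scale and from etoposide by −2.94 (SE 0.60), 3.99-fold and 7.69-fold lower. Exons of LINC01409 share 114 bases on the same strand with a pseudogene that had 0 counts in every library, and 93 bases on the opposite strand with a second pseudogene (ENSG00000230092) that had 0 and 1 counts in control, 5 and 6 with etoposide, and 1 and 2 with adriamycin. The part of this overlap in the counts of LINC01409 was not tested.

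LINC01134 had 20 and 15 raw counts in control, 34 and 30 with etoposide, and 5 and 3 with adriamycin, with exact Poisson 95% intervals of 1.62 to 11.7 and 0.619 to 8.77 for the last pair. Its normalized counts were 16.2 and 17.2 in control, 23.0 and 31.6 with etoposide, and 5.41 and 4.19 with adriamycin. The 3 groups kept apart in the same order as for LINC01409. The log2 fold change of adriamycin was −1.75 (SE 0.75) against control and −2.43 (SE 0.72) against etoposide.

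LINC01128 had by far the most raw counts of the 6, with 639 and 460 in control, 848 and 580 with etoposide, and 347 and 270 with adriamycin. Its normalized counts were 518 and 528 in control, 574 and 610 with etoposide, and 375 and 377 with adriamycin, and no group overlapped another. The differences were smaller than those of MRPL20-AS1, MRPL20-DT, LINC01409 and LINC01134: −0.47 (SE 0.12) on the log2 scale against control, or 1.39-fold lower, and −0.65 (SE 0.11) against etoposide, or 1.57-fold lower.

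LINC00115 had the fewest raw counts of the 6 in control and etoposide, with 15 and 11 raw counts in control, 20 and 13 with etoposide, and 5 and 8 with adriamycin. Its normalized counts were 12.2 and 12.6 in control, 13.5 and 13.7 with etoposide, and 5.41 and 11.2 with adriamycin. The adriamycin libraries differed from each other more than the higher of them differed from control. The log2 fold change of adriamycin against control was −0.62 (SE 0.68), and it was −1.16 when adriamycin replicate 2 was left out and −0.083 when adriamycin replicate 1 was, so no difference was detectable at this depth.

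**Figure D2:**
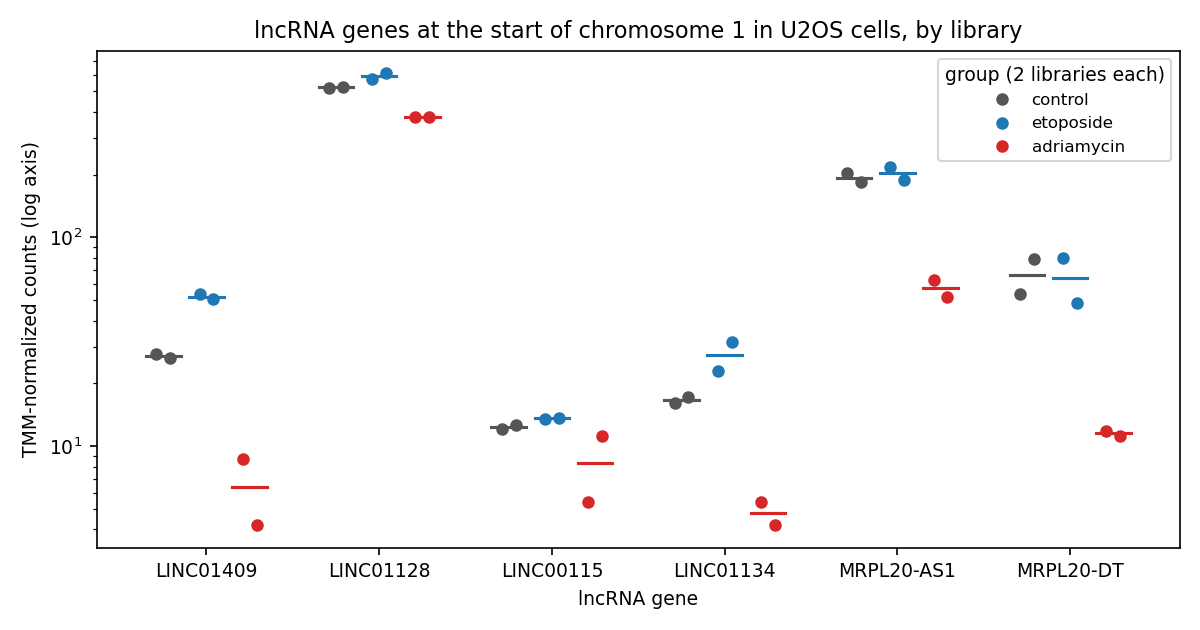
Normalized counts (TMM, log axis) of the 6 lncRNA genes in control (grey), etoposide (blue) and adriamycin (red), with 1 point per library and a line at the mean of the 2 libraries. The adriamycin points lie lowest in each gene; the gap is wide for MRPL20-AS1, MRPL20-DT, LINC01409 and LINC01134, and narrow for LINC01128.

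A call was set for all genes at an adjusted p under 0.01 and a log2 change over 1 in either direction. As a description of the genes chosen, MRPL20-AS1, MRPL20-DT and LINC01409 (3 of 6) met it as lower in adriamycin than in control, and with LINC01134 4 of 6 met it as lower than in etoposide. Over all 94 genes tested, 7.45% were called lower and 1.06% higher than control, and 10.6% were called lower and 2.13% higher than etoposide. Because earlier results of the adriamycin comparisons chose the genes, nothing is read from these counts. The median log2 fold change of the 6 was −1.75 against control and −2.12 against etoposide, and that of all tested genes was −0.072 and −0.069. LINC01409 against control no longer met these thresholds whenever any single library was left out, with log2 fold changes between −2.60 (without adriamycin replicate 1) and −1.61 (without adriamycin replicate 2), with only the 4 libraries compared (−1.97), and with the DESeq2 Wald test (−1.93). Against etoposide, LINC01134 did not meet them without either adriamycin or either etoposide library (−2.64 to −2.18) or with the DESeq2 Wald test (−2.43), and LINC01409 and MRPL20-DT did not without etoposide replicate 1 (−2.87 and −2.03).

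Etoposide against control asks what the other topoisomerase II poison did to the same RNAs, in the same fit and against the same control libraries. These etoposide and control libraries were also part of the adriamycin comparisons that chose the genes. The p-values of the 6 in this comparison are therefore not independent of that choice. None of the 6 was called by edgeR's quasi-likelihood test, beside 2.13% of tested genes called higher and 3.19% called lower; 1 of the 6 had an unadjusted p under 0.05, and the DESeq2 Wald test called 0. That gene was LINC01409, from 27.0 ± 0.822 normalized counts in control to 52.0 ± 2.1 with etoposide (SD, n = 2), with a log2 fold change of 0.94 (SE 0.37, 95% interval 0.21 to 1.67, edgeR adjusted p = 0.0366). It was called under upper-quartile scaling (1.17, edgeR adjusted p = 0.00679) and with library size alone (1.14, edgeR adjusted p = 0.00787), which moved the median of all tested genes from 0.027 to 0.25 and 0.22. For LINC01409 the DESeq2 Wald test gave 0.999 (DESeq2 adjusted p = 0.15). With no filter beyond 1 count its change was 0.959 (edgeR adjusted p = 0.0529). With 1 library left out, the log2 fold change of LINC01409 ran from 0.89 to 0.98. LINC01134 was at 16.7 ± 0.709 and 27.3 ± 6.05 normalized counts, a log2 fold change of 0.68 with a 95% interval of −0.22 to 1.58 (edgeR adjusted p = 0.224).

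The other 4 RNAs had fitted etoposide changes under 0.2 on the log2 scale. LINC01128 differed by 0.18 (95% interval −0.033 to 0.39, edgeR adjusted p = 0.189) and LINC00115 by 0.14 (−0.95 to 1.22, edgeR adjusted p = 0.849). MRPL20-AS1 differed by 0.071 (−0.26 to 0.40, edgeR adjusted p = 0.803). MRPL20-DT differed by 0.0058 (−0.60 to 0.61, edgeR adjusted p = 0.985), from −0.44 without etoposide replicate 1 to 0.27 without etoposide replicate 2. For LINC00115, LINC01134 and MRPL20-DT these intervals, about 2 SE to either side, include changes of more than 1.5-fold in at least 1 direction. The median of the 6 was 0.16, and of all tested genes 0.027.

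The coding neighbours were CCNL2, MRPL20, C1orf174 and SAMD11, which passed the filter, and OR4F16, ANKRD65 and AJAP1, which did not enter the test. None of the 4 tested was called by edgeR or by the DESeq2 Wald test in any of the 3 comparisons. With an unadjusted p under 0.05 there were 2 for etoposide against control, 4 for adriamycin against control and 3 for adriamycin against etoposide, beside 40, 51 and 53 of all 94 tested genes. All 4 had an adjusted p under 0.01 for adriamycin against control with log2 changes under 1 in size, as did 18 higher and 18 lower of the 94 genes at any size of change. C1orf174 came closest to a call. It stood at 606 and 533 normalized counts in control, 593 and 576 with etoposide, and 303 and 282 with adriamycin. The log2 fold change of adriamycin was −0.96 against control (SE 0.12, edgeR adjusted p = 7.24e-12) and −0.996 against etoposide (SE 0.12, edgeR adjusted p = 9.28e-13), and etoposide differed from control by 0.033 (SE 0.11, edgeR adjusted p = 0.849). Without control replicate 2 it was called lower than control (−1.05), and without adriamycin replicate 1 lower than etoposide (−1.01).

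CCNL2 and MRPL20, on either side of MRPL20-AS1, were higher with adriamycin than in control. CCNL2 had 1626 and 1597 normalized counts in control, 2067 and 2336 with etoposide, and 2618 and 2414 with adriamycin. Its log2 fold change was 0.64 for adriamycin (SE 0.090, edgeR adjusted p = 8.86e-10) and 0.45 for etoposide (SE 0.089, edgeR adjusted p = 1.41e-05), each against control. MRPL20 had 1125 and 1205 normalized counts in control, 1197 and 1068 with etoposide, and 1565 and 1391 with adriamycin, a log2 fold change of 0.35 against control (SE 0.094, edgeR adjusted p = 0.00123). With library size alone the MRPL20 change was 0.13 (edgeR adjusted p = 0.237). Adriamycin and etoposide differed by 0.20 in CCNL2 (SE 0.089, edgeR adjusted p = 0.0556) and by 0.38 in MRPL20 (SE 0.094, edgeR adjusted p = 0.000239), and both turned negative with library size alone (−0.22 and −0.032). In MRPL20, etoposide differed from control by −0.037 (edgeR adjusted p = 0.817).

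SAMD11 was lower than in control with either drug. Its normalized counts were 714 and 653 in control, 453 and 462 with etoposide, and 429 and 409 with adriamycin, and the log2 fold changes were −0.58 for etoposide (SE 0.11, edgeR adjusted p = 3.02e-06) and −0.71 for adriamycin (SE 0.11, edgeR adjusted p = 4.43e-08). Adriamycin and etoposide differed here by −0.12 (SE 0.11, edgeR adjusted p = 0.374). ANKRD65, beyond MRPL20-DT, had 0 counts in the control and adriamycin libraries and 4 and 5 with etoposide, too few to test. OR4F16, an olfactory receptor gene, had 0 counts in every library, and AJAP1 was outside the shared list.

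**Figure D3:**
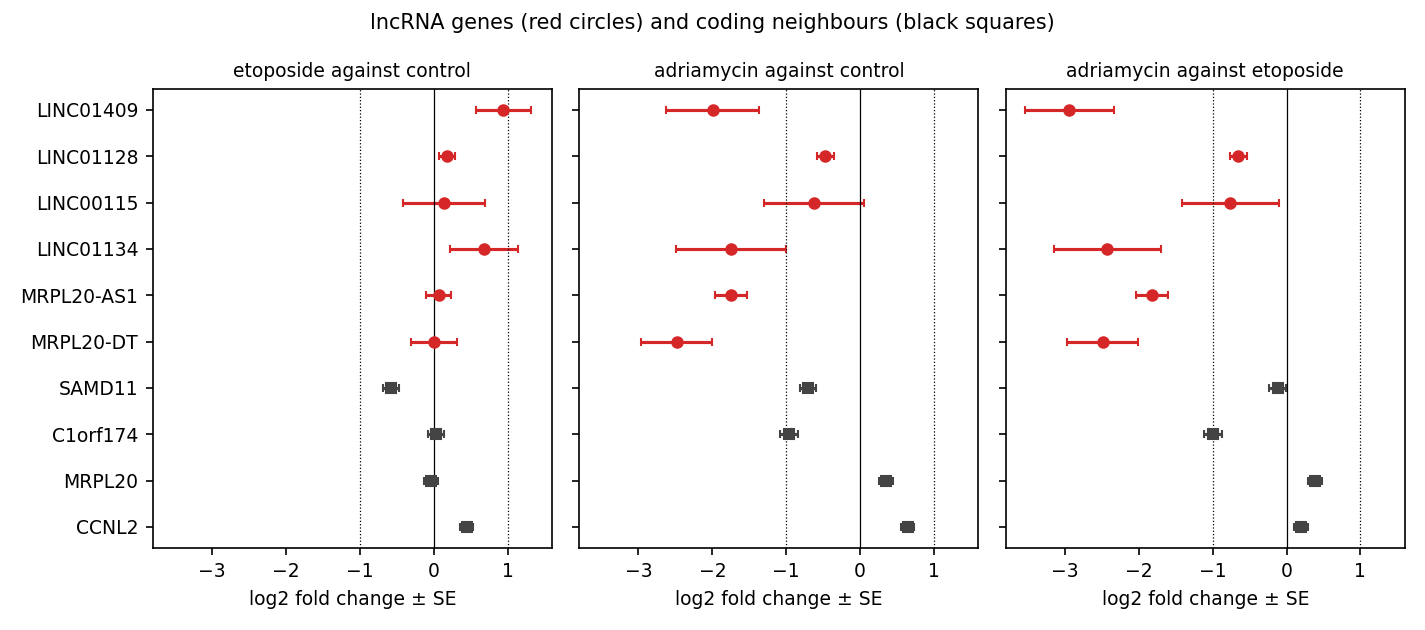
Log2 fold changes with SE from one edgeR fit of the 6 libraries, for the 6 lncRNA genes (red circles) and the 4 tested coding neighbours (black squares), in etoposide against control, adriamycin against control and adriamycin against etoposide. Dotted lines mark a log2 change of 1; with adriamycin the lncRNA genes lie left of 0 in both comparisons (−2.48 to −0.47 against control), and MRPL20 and CCNL2 lie right of it.

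To set each lncRNA against its neighbour without any scaling between libraries, its raw counts were divided by those of the neighbour in the same library. These ratios reuse the adriamycin counts that chose the lncRNAs and are a description; an exact permutation test of 2 against 2 libraries could not go below p = 0.333. MRPL20-AS1 had 18.1 and 15.2 counts per 100 of MRPL20 in control, 18.2 and 17.6 with etoposide, and 4.01 and 3.71 with adriamycin. The log2 ratio of adriamycin to control was −2.10, between −2.23 and −1.98 when any 1 of the 4 libraries was left out. Against CCNL2, with which it shares a start region, MRPL20-AS1 had 12.5 and 11.5 counts per 100 in control, 10.5 and 8.06 with etoposide, and 2.40 and 2.14 with adriamycin, a log2 ratio of −2.40 to control. The 2 genes of this start region thus stood apart, the coding RNA higher and the lncRNA lower with adriamycin.

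MRPL20-DT had 4.75 and 6.57 counts per 100 of MRPL20 in control, 6.67 and 4.53 with etoposide, and 0.760 and 0.803 with adriamycin. The log2 ratio of adriamycin to control was −2.84, and control and etoposide overlapped. At the other shared start region, LINC01134 had 2.67 and 3.23 counts per 100 of C1orf174 in control, 3.88 and 5.48 with etoposide, and 1.79 and 1.49 with adriamycin. Here the coding RNA was also lower with adriamycin, and the log2 ratio to control was −0.85, between −0.99 and −0.72 with 1 library left out.

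The 3 genes before SAMD11 did not share 1 course relative to it. LINC01409 had 3.86 and 4.04 counts per 100 of SAMD11 in control, 11.8 and 10.9 with etoposide, and 2.02 and 1.02 with adriamycin, so it was higher than control with one drug and lower with the other. LINC01128 had 72.5 and 80.8 in control, 127 and 132 with etoposide, and 87.4 and 92.2 with adriamycin. Its share relative to SAMD11 was thus above control with both drugs. SAMD11 itself was lower than control, by −0.71 with adriamycin and −0.58 with etoposide on the log2 scale. The fitted changes of LINC01128 were −0.47 and 0.18, and those of LINC00115 were −0.62 and 0.14, in the same order. Per 100 counts of SAMD11, LINC00115 had 1.70 and 1.93 in control, 2.99 and 2.96 with etoposide, and 1.26 and 2.73 with adriamycin, and the adriamycin libraries fell on both sides of control. Relative to LINC01128, with which it overlaps, LINC00115 was at 2.37 ± 0.0310 counts per 100 in control, 2.30 ± 0.0828 with etoposide and 2.20 ± 1.08 with adriamycin (SD, n = 2).

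**Figure D4:**
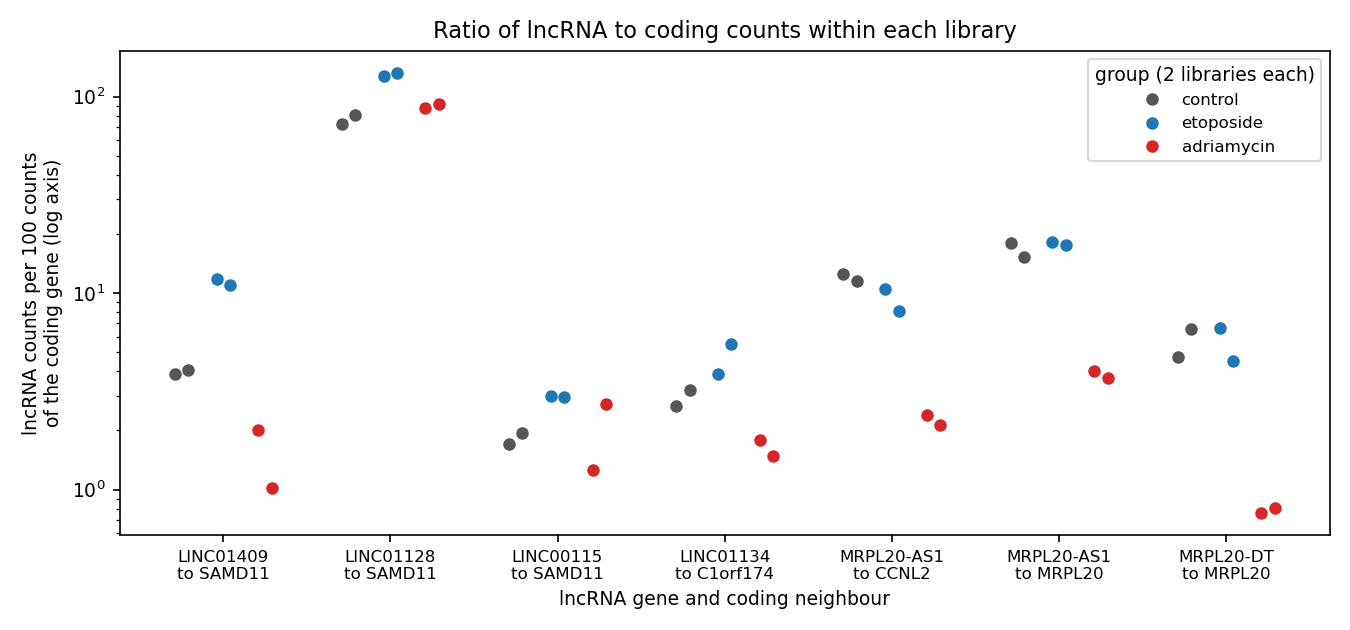
Counts of each lncRNA per 100 counts of a coding neighbour within each library (log axis), in control (grey), etoposide (blue) and adriamycin (red), with 1 point per library. Adriamycin points are lowest for LINC01409, LINC01134, MRPL20-AS1 and MRPL20-DT, lie above control for LINC01128 and on both sides of control for LINC00115.

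Likeness of pattern was measured as Pearson's r of log2 CPM across the 6 libraries, which come from 3 groups and share their depth and treatment, so r is given as a description without a p. The 6 lncRNA genes were chosen with lower adriamycin levels in view, so a high r among them follows in part from that choice. In the adriamycin libraries LINC01409 had only 8 and 3 counts and LINC01134 only 5 and 3. LINC01409, LINC01128 and LINC01134 were most like each other, with r of 0.980 between LINC01409 and LINC01134, 0.994 between LINC01128 and LINC01134, and 0.970 between LINC01409 and LINC01128. The coding genes next in likeness were TPRG1L for LINC01409 (0.965) and LRRC47 for LINC01128 (0.970) and LINC01134 (0.965). MRPL20-AS1 was most like C1orf174 (0.997) and CPTP (0.993), and then MRPL20-DT (0.971). MRPL20-DT was most like UBE2J2 (0.981), MRPL20-AS1 and C1orf174 (0.952). LINC00115 was least like the others, with r from 0.616 (LINC01409) to 0.766 (LINC01128), and its closest genes were ENSG00000273443 (0.90), ENSG00000269737 (0.873) and ENSG00000272106 (0.859).

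Of the 75 other lncRNA genes in the shared list, 20 passed the filter. With adriamycin 0 of these 20 were called in comparison with control by edgeR or the DESeq2 Wald test (4 had an unadjusted p under 0.05). In comparison with etoposide, edgeR called 1 lower (ENSG00000268575, log2 fold change −2.13, SE 0.64, edgeR adjusted p = 0.000673) and the DESeq2 Wald test called 0. ENSG00000268575 had 11 and 15 raw counts in control, 47 and 26 with etoposide, and 6 and 5 with adriamycin. It passed the filter on low counts through the etoposide group, where it was high, so this call is a description. The median log2 fold change of the 20 was −0.068 against control and −0.18 against etoposide, beside 0.10 and 0.10 for the 55 coding genes tested. Of these 55 coding genes, edgeR called 4 lower and 0 higher with adriamycin than in control. Against etoposide it called 4 of them lower and 2 higher. LINC02780, the most counted of the other lncRNA genes, differed from control by −0.89 with etoposide (edgeR adjusted p = 1.86e-12) and by −0.054 with adriamycin (edgeR adjusted p = 0.677). ENSG00000284703 was called lower with etoposide than in control (−1.08, edgeR adjusted p = 4.31e-06), and the adriamycin difference was −0.99 (edgeR adjusted p = 4.29e-05). LINC02593, which lies between LINC01128 and SAMD11, differed from control by 0.24 with etoposide and by −0.36 with adriamycin (edgeR adjusted p = 0.097).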

How the data were processed

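Per the labels and the study's methods, the authors aligned paired reads of 150 bases to GRCh38 with HISAT2 2.1.0 and deposited raw counts per Ensembl gene from featureCounts (Subread 2.0.0), 1 file per library, with no normalization. The annotation release and the strand and multi-mapping settings are not given in the sources used here. Groups and replicate numbers came from the labels. The etoposide files listed 67140 genes; the 2 control files listed 292 and 280 and the 2 adriamycin files 220 and 221, and in each of these 4 the last line was incomplete and was left out. Comparisons used the 220 genes shared by all libraries, with 59357 to 92794 counts each.

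The genes and gene lists were chosen with earlier results of these data known. All 6 libraries entered 1 quasi-likelihood model (edgeR 4.0.16 under R 4.3.3), scaled by TMM after edgeR's default filter on low counts (minimum 10 per gene, 15 in total), and p-values were adjusted by Benjamini-Hochberg over the 94 genes tested; a call needed an adjusted p under 0.01 and a log2 change over 1, the study's thresholds. The biological coefficient of variation was 7.51%. The TMM scale rests on these 94 genes, so a change common to most of them cannot be seen. Standard errors came from the fit, 95% intervals are about 2 SE to either side, and normalized counts are counts over a library's TMM size factor. Levels per exon length used GENCODE 44 exons and the whole etoposide libraries. Coding neighbours are the overlapping and the nearest coding gene on each side; ratios used neighbours with at least 10 counts in every library. Named genes were the 6 lncRNA genes, these neighbours, the 3 tested genes with the highest r for each, and of the other lncRNA genes the 3 with most counts and those called. Start windows came from RefSeq. One cell type marker is not reported here. The procedure was tested on simulated data. The replicates of each group differed by more than sampling noise in a chi-square test. Alternatives were DESeq2 1.42.0 size factors and Wald test, upper-quartile scaling, library size alone, TMM over coding genes, other filters, a replicate block, only the 4 libraries compared, an adjusted p under 0.05, and each library left out.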

Additional observations from a re-analysis of the deposited data

How the results depend on the processing

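Of the recomputed fold changes, ratios and levels of the 6 lncRNA genes and 4 tested neighbours, 416 stayed on their side of the threshold or, where untested, within 1 SD. A further 43 moved by more, and 12 tested values became calls (LINC01409 with etoposide, and C1orf174). The remaining 15, all of them fold changes, changed sign. Ratios were sorted by the size of their move alone, so a ratio that changed sign is not among these 15. No fitted adriamycin fold change of a lncRNA gene changed sign, but the adriamycin to control ratio of LINC00115 per SAMD11 ran from −0.53 to 0.59 (log2) with 1 library left out, and that per LINC01128 from −0.72 to 0.32 (−0.67 to 0.37 against etoposide). With at least 10 counts in every library, where fewer genes are tested, 1 lncRNA gene (MRPL20-AS1) was called lower with adriamycin in each comparison, and 1 gene was higher with etoposide than control. LINC01409 was the 1 lncRNA gene called higher with etoposide under upper-quartile scaling and library size alone. Genes higher with adriamycin than control numbered 2 with DESeq2 size factors or the DESeq2 Wald test, 4 with upper-quartile scaling, and 0 with library size alone, TMM over coding genes or only the 4 libraries. Against etoposide they numbered 1 with upper-quartile scaling, library size alone, TMM over coding genes, no filter, at least 10 counts or only the 4 libraries, and lower genes 21 with library size alone, 6 with DESeq2 and 5 with at least 10 counts. The untested LINC01128 value met the call thresholds, as lower than etoposide, with library size alone (−1.07). C1orf174 was the 1 neighbour called lower than control with library size alone or TMM over coding genes, and lower than etoposide with upper-quartile scaling, library size alone, TMM over coding genes, no filter, at least 10 counts or only the 4 libraries. Leaving out 1 library gave 0 to 2 genes higher and 0 to 3 lower for etoposide against control; 0 to 2 higher, 2 lncRNA genes lower and 0 to 1 neighbour lower for adriamycin against control; and 1 to 3 higher, 2 to 10 lower, 1 to 4 lncRNA genes lower and 0 to 1 neighbour lower for adriamycin against etoposide.

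Etoposide values that changed sign were all within 0.5 of 0. With 1 library left out, MRPL20-AS1 ran from −0.051 to 0.15 (−0.013 without control replicate 2), MRPL20-DT from −0.44 to 0.27 (−0.27 without control replicate 1), C1orf174 from −0.066 to 0.13 and MRPL20 from −0.13 to 0.017. MRPL20-DT was −0.022 with only the 4 libraries. MRPL20 was 0.19 under upper-quartile scaling, 0.16 by library size alone, 6.9e-05 with TMM over coding genes, 0.017 with the DESeq2 Wald test and 0.0090 with at least 10 counts. Adriamycin against etoposide, with library size alone, gave −0.032 for MRPL20 and −0.22 for CCNL2, while the median of all genes was −0.48. The causes of these changes were not tested.

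Normalized counts gave no sign of pairing by replicate number: deviations of same-numbered libraries correlated at −0.070, 0.036 and −0.010 over 75 genes. Replicate 1 was deeper than replicate 2 in every group, and these correlations cannot settle whether the libraries were paired. A replicate block changed no count of calls, and MRPL20-DT then stood at −0.0084 for etoposide against control. The adriamycin counts of LINC00115, LINC01134 and LINC01409, at 3 to 8 per library, limit what can be said of their size of change.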
